A study of Mus musculus with 2 samples.

Results

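The 40 genes described here act in the G2 phase of the cell cycle and in mitosis. They were taken by name from a list and matched to the gene symbols of the deposited count tables, where each of the 40 was found exactly once among 32285 genes and had UMIs (unique molecular identifiers, which count captured messenger RNA molecules) in both libraries. By role they comprise 7 cyclins and controllers of Cdk1, 8 mitotic kinases and checkpoint proteins, 2 partners of the anaphase-promoting complex, 6 centromere and kinetochore proteins, 5 kinesins, 9 spindle and cytokinesis proteins and 3 general markers of proliferation.

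The cells came from mouse marrow, 10 weeks post-transplantation, and were selected for CD45.2, a form of the pan-leukocyte protein CD45, and for Kit (CD117), the receptor found on blood stem and progenitor cells. CITE-seq reads transcripts and barcoded surface antibodies together in single droplets. The series held 1 library per group, the first labelled control and the other Utx deleted; UTX, encoded by Kdm6a, is a histone demethylase in the complexes of the methyltransferases MLL3 and MLL4, the subject of the series. The strain, the alleles, the driver of the deletion, the number of animals and what the 2 hashtag antibodies mark are not given in the sources used here. Each group was 1 library, so no difference between the conditions was tested, and every interval below is a 95% interval for counting error only. Values of the 2 hashtag populations of a library show the spread inside it and are not known to be replicates.

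Cells duplicate their DNA in S phase, and in G2 they build up cyclin B with its kinase Cdk1, which drives entry into mitosis. Kinetochore proteins then tie chromosomes to the spindle, motor proteins of the kinesin family shape it, the checkpoint kinases hold the cell until every chromosome is attached, and Cdc20 with Ube2c directs the anaphase-promoting complex to destroy cyclin B and end mitosis. In the bone marrow, stem cells divide rarely, committed progenitors and neutrophil precursors up to the granule-forming stages divide often, and the neutrophils that follow no longer divide.

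Many promoters of these genes hold CCAAT boxes and a CHR (cell cycle genes homology region), the elements through which mitotic genes are known to be switched together. Of the 40 genes, 34 had a promoter in the RefSeq table for GRCm38.p6 (Ccna2, Cdc25c, Aurkb, Tpx2, Kif20a and Dlgap5 did not). Over the 300 bases from 250 before to 50 after the start, CCAAT on either strand (CCAAT or ATTGG) was found in 25 of the 34 (73.5%), against 41.1% of the 27025 genes in the table. At least 2 such boxes were found in 17 of the 34, against 13.3% of all genes. The CHR letters TTTGAA or TTCAAA were found in 25 of the 34 (73.5%), against 20.2%, and both motifs in 21 (61.8%), against 7.97%. The motifs can share at most their end base, and a match is only a run of letters. The 150 bases directly before the start are shown for 3 of the 6 members that held at least 2 CCAAT boxes and a CHR match in that stretch, with the motif letters in capitals, as examples of the motif pair.
Cdk1, chr10:69352913-69353062, minus strand: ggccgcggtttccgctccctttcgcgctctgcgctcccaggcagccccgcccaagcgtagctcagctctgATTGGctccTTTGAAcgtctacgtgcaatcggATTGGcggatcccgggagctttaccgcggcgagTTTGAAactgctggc
Top2a, chr11:99024190-99024339, minus strand: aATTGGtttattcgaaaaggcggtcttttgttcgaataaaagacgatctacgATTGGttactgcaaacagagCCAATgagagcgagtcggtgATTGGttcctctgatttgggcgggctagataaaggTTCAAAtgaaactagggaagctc
Ube2c, chr2:164769779-164769928, plus strand: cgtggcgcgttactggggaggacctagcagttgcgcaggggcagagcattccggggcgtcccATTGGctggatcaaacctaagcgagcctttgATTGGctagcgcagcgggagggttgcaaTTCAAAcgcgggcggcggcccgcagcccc
In these stretches the CHR match nearest to the start began 15 bases before it in Cdk1, 23 in Top2a and 29 in Ube2c.

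After filtering, 7011 cells were kept in the control library and 7206 in the Utx-deleted one, with a median of 12367 and 11816.5 gene UMIs per cell. Kdm6a was counted at 1.10 and 1.03 UMIs per 10000 gene UMIs, and since 3-prime counting sees only the end of a transcript, this does not check the label. Kit, whose product CD117 the cells were selected for, was at 3.59 and 3.27 UMIs per 10000 in stem-cell-like cells and at 0.322 and 0.219 in late-neutrophil-like cells (control first), with a median of 201 and 229.5 CD117 tag UMIs per cell against 13 and 8. Each cell was put in a stage by the UMIs of lineage markers alone, with no cell cycle gene used: Hlf and Mecom for stem-cell-like cells, Cpa3 and Gata2 for early myeloid progenitors, Elane for neutrophil progenitors, Fcnb for pre-neutrophils, Ltf without much Fcnb for immature neutrophils and Retnlg for late neutrophils, besides monocyte progenitors, megakaryocyte or erythroid cells and basophils or mast cells. The stages were unequally filled. Pre-neutrophil-like cells made up 24.6% of the control library and 14.8% of the other, immature neutrophils 33.2% and 43.5%, monocyte progenitors 4.25% and 9.17%, and stem-cell-like cells 3.72% and 0.777%. Lymphoid-primed cells numbered 43 and 5 and were not compared, and 17 barcodes occurred in both libraries.

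The summed level of the 40 genes differed widely between stages, and pre-neutrophils were highest and late neutrophils lowest of the 9 compared stages in both libraries. In the control library it was 58.8 UMIs per 10000 in pre-neutrophil-like cells, 50.8 in immature neutrophils, 46.2 in stem-cell-like cells, 45.7 in megakaryocyte or erythroid cells, 39.9 in early myeloid progenitors, 31.8 in monocyte progenitors, 31.3 in basophils or mast cells, 25.3 in neutrophil progenitors and 2.03 in late neutrophils. In the library labelled Utx-deleted the corresponding levels were 48.6, 46.2, 45.3, 44.1, 34.1, 29.1, 35.5, 23.0 and 2.04. The stem-cell-like and megakaryocyte or erythroid levels could not be ordered in either library, because their hashtag values overlapped (39.6 and 50.9 against 43.3 and 47.6 in the control library). The drop to the late neutrophils, by contrast, was far outside the spread of the hashtags, which read 1.84 and 1.89 there (control) against 1.35 and 1.37. There the whole library stood above both of its hashtags, since droplets with both or neither hashtag entered only the whole. The late log2 ratio of the whole libraries, 0.00, was -0.44 and -0.46 by hashtag and -0.47 after thinning to 5000 UMIs per cell, and 0.34 with 2-fold lower marker cutoffs. B-cell-like cells, at 79.7 and 69.3, were higher than any of these stages but numbered 83 and 37 and were not compared.

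**Figure D1:**
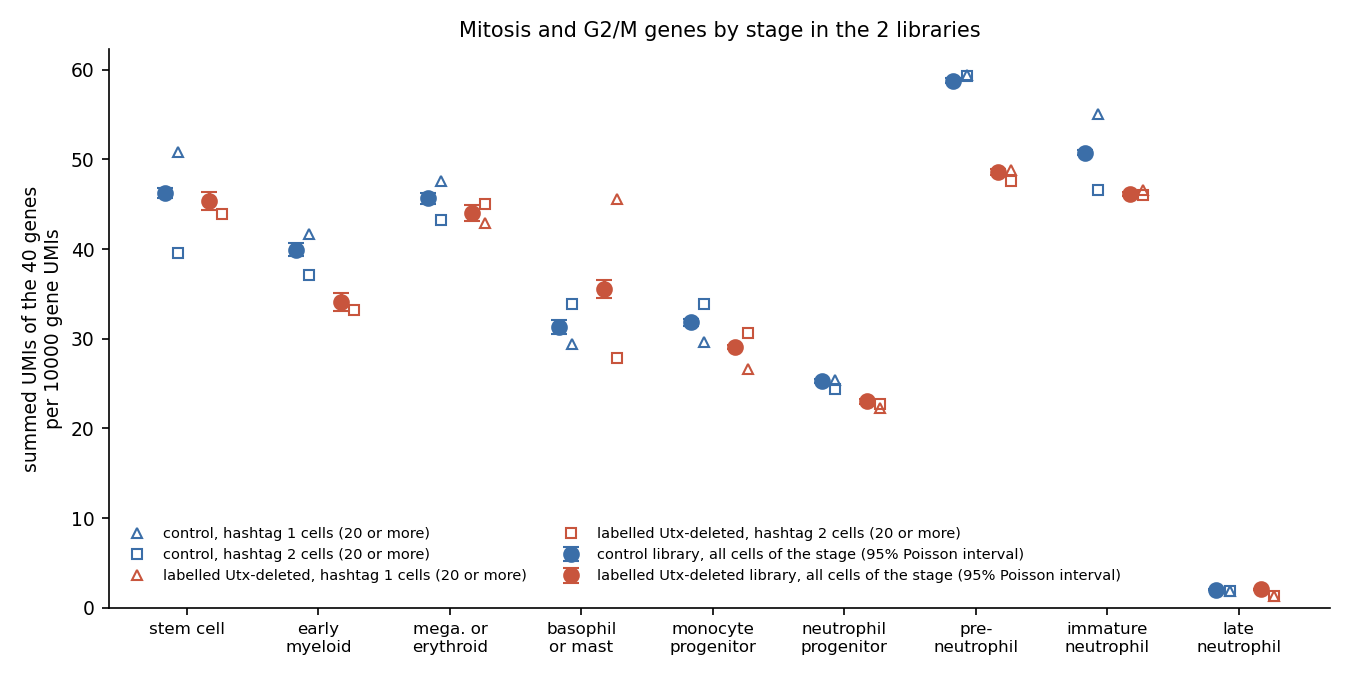
Summed UMIs of the 40 genes per 10000 gene UMIs (vertical axis) in 9 stages (horizontal axis); filled circles are whole libraries with 95% Poisson intervals, open triangles and squares the cells of hashtag 1 and hashtag 2 where at least 20 cells carried it. Pre-neutrophils show the clearest gap, with both control hashtags at 59.3 or above and both of the other library at 48.9 or below, while late neutrophils lie lowest, at 1.84 and 1.89 (control) and 1.35 and 1.37 by hashtag.

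Over all cells the summed level was 42.6 UMIs per 10000 in the control library (42.5 to 42.7) and 35.9 (35.8 to 36) in the library labelled Utx-deleted, a log2 ratio of -0.25 (-0.25 to -0.24). The hashtag populations read 43.5 and 41.2 (control) against 35.1 and 34.9, so they did not overlap. The gap was smaller at equal stage weights. With the 9 stages that had at least 50 cells in each library given the same weights in both, the levels were 39.9 and 35.5, a log2 ratio of -0.17. Put the other way, the control library's stage mix with the other library's levels gave 36.3, and the reverse exchange gave 38.8, beside 41.0 and 34.7 with each library's own mix and levels.

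Among the 9 stages the lowest ratio in the main setting was in the stage with the highest level. After thinning to 5000 UMIs per cell, late neutrophils (-0.47) and early myeloid progenitors (-0.34) were lower than pre-neutrophils. In pre-neutrophil-like cells the level was 58.8 against 48.6, a log2 ratio of -0.27 (-0.29 to -0.26), and the hashtag populations were tight on both sides, at 59.4 and 59.3 against 48.9 and 47.6. Leaving the 50 most abundant genes out of the total brought this ratio to -0.17. Immature neutrophils differed by -0.14 (-0.15 to -0.13), but there the second control hashtag, at 46.6, reached the other library's 46.6 and 46.0. In hashtag 2 alone the ratio was -0.02, and with a second set of neutrophil markers -0.28. Monocyte progenitors differed by -0.13, with overlapping hashtags (29.6 and 33.9 against 26.6 and 30.6), and by -0.03 with 2-fold higher marker cutoffs. Neutrophil progenitors differed by -0.14, with hashtags at 25.4 and 24.4 against 22.3 and 22.7, by -0.28 after thinning each cell to 5000 UMIs and by -0.07 with the second marker set. Early myeloid progenitors differed by -0.23, on 118 and 56 cells, and this ratio turned to 0.42 with 2-fold higher marker cutoffs. Stem-cell-like cells (-0.03, interval -0.07 to 0.01, and 0.16 with 2-fold lower cutoffs) and megakaryocyte or erythroid cells (-0.05) showed no gap beyond the hashtags, on 56 and 61 cells in the Utx-deleted library, and the megakaryocyte or erythroid ratio turned to 0.19 after the same thinning. Basophils or mast cells were higher, at 31.3 against 35.5 (log2 0.18), yet their hashtags in the library labelled Utx-deleted lay at 45.6 and 27.9, on both sides of the control values of 29.5 and 33.9, and as a mean over cells their ratio was 0.03. In a droplet count per stage, fewer dividing cells and less RNA per dividing cell cannot be told apart, which the counts per cell below address.

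Counted cell by cell, the module was nearly all or none in immature neutrophils and graded in the progenitors. Each cell was thinned to 5000 UMIs (571 control cells and 317 of the other library were shallower and were left out), and a cell with at least 5 UMIs of the 40 genes was counted as high. In immature neutrophils of the control library 28.6% of cells held none of the 40 transcripts and 34.6% held 1 to 4, while 26.3% held 40 or more and 5.30% lay in between at 5 to 19. The library labelled Utx-deleted was split in the same way, with 34.3% at none, 28.4% at 1 to 4, 6.04% at 5 to 19 and 23.2% at 40 or more. Neutrophil progenitors were graded instead, with 52.3% against 36.9% of cells at 5 to 19 and 3.02% and 2.03% at 40 or more. In control cells of any stage with at least 20 of these UMIs, a median of 22 of the 40 genes were detected, and 21 in the other library. The genes also went together within cells. When the 40 were split into 2 sets of 20 by taking every other gene of the alphabetical order, control cells with at least 3 UMIs of the first set held a mean of 20.3 UMIs of the second, against 0.635 in cells with none. Within single stages the 2 means were 28.4 and 0.459 in immature neutrophils, 21.1 and 0.845 in pre-neutrophils, 9.72 and 1.45 in monocyte progenitors, 8.26 and 1.92 in neutrophil progenitors and 1.58 (12 cells) and 0.542 in late neutrophils.

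**Figure D2:**
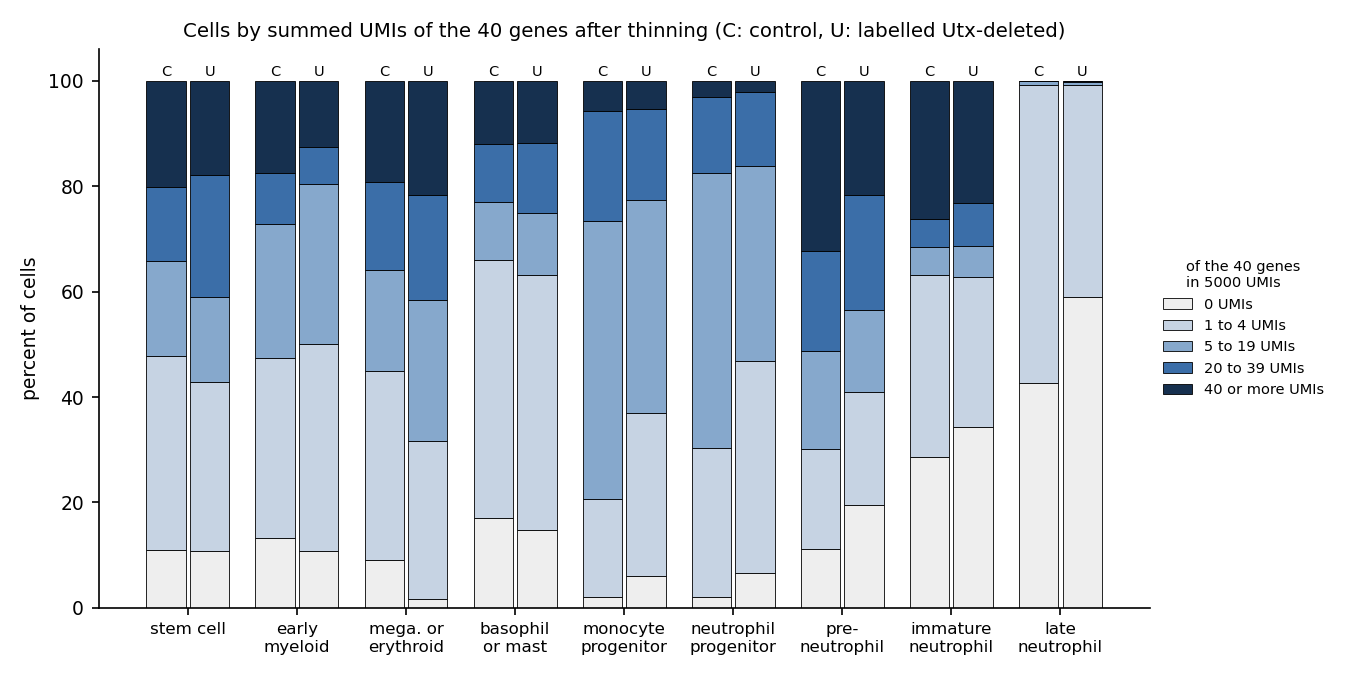
Percent of cells (vertical axis) in 5 classes of summed UMIs of the 40 genes after thinning to 5000 UMIs per cell, for 9 stages (horizontal axis), control at left and the library labelled Utx-deleted at right of each pair. Immature neutrophils split into cells at 0 to 4 and cells at 40 or more, neutrophil and monocyte progenitors lie mostly at 1 to 19, and late neutrophils hold almost no high cell.

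High cells made up 47.4% (46.2 to 48.7, exact binomial) of the control library against 39.2% (38.0 to 40.3). Without thinning the shares were 53.0% and 47.8%. At this cut the share was lower by more than the hashtags spread in 3 stages. It was 69.8% against 59.1% in pre-neutrophils, 69.8% against 53.1% in neutrophil progenitors and 79.4% against 63.0% in monocyte progenitors, and in each of the 3 stages both hashtags of the library labelled Utx-deleted lay below both control hashtags. At a cut of 10 UMIs the difference in neutrophil progenitors shrank from -16.6 to -5.89 percentage points and that in monocyte progenitors from -16.4 to -10.7. High cells of these progenitors also differed in surface tags, given as medians per 1000 surface-tag UMIs, control first. In monocyte progenitors CD16/32 was 402 against 271, CD34 15.6 against 27.5 and CD117 59.5 against 84.4. In neutrophil progenitors they were 293 against 226, 9.68 against 15.8 and 121 against 180. These shares rest on unlike tag totals, with medians of 2485 and 1691 UMIs per cell in monocyte and 1930 and 1322.5 in neutrophil progenitors. In median UMIs per cell CD117 hardly differed, at 135 and 140 in monocyte and 224 and 229 in neutrophil progenitors. In the same order CD34 was at 41 and 48, and 19 and 24, and CD16/32 at 1015 and 450, and 573.5 and 272.5. F13a1 transcripts in monocyte progenitors were at 8.70 and 13.3 UMIs per 10000. The part of these differences in the shares was not tested. Early myeloid progenitors were at 52.6% and 50%, with hashtags at 50.8% and 53.7% against 41.2% and 53.8%, but their difference depended on the cut. It was -6.83 points at 3 UMIs and -14.9 at 2 UMIs in cells thinned to 2000, and at each of these cuts both hashtags of the library labelled Utx-deleted lay below both control hashtags (at the latter 35.3% and 46.2% against 54.1% and 61.1%). At 10 UMIs the difference was -5.48 points and the hashtags overlapped, at 40.7% and 44.4% (control) against 29.4% and 41.0%. Basophils or mast cells were at 34% and 36.8%, and their difference was below 0 at 2 UMIs in 2000. Megakaryocyte or erythroid cells stood the other way, at 55.1% against 68.3%, with hashtags at 54.5% and 56.5% against 72% and 65.7%, and a difference of 10.2 to 18.2 points over cuts of 3, 5 and 10 UMIs. The high cells of that stage also differed in surface tags, with a median of 14.1 against 353 for CD41 and 540 against 255 for CD48 per 1000 surface-tag UMIs, and the part of this in the share was not tested. Immature neutrophils had nearly the same share, 36.8% and 37.3%, with hashtags from 33.5% to 40.1%. Stem-cell-like cells, at 52.1% and 57.1%, overlapped in their intervals of 45.8 to 58.4 and 43.2 to 70.3. Late neutrophils, which no longer divide, give the background: 6 of 833 and 9 of 1154 cells were high, 0.720% and 0.780%, and all late cells had unthinned medians of 5844.5 and 7326 UMIs. By hashtag the high shares were 0.608% and 0.615% (control) against 0.351% and 0.184%, and droplets with both or neither hashtag entered only the whole. At a lower cut this background was unequal in the whole libraries too, 7.32% and 2.95% at 3 UMIs and 6.41% and 3.14% at 2 UMIs in 2000.

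The high cells held a mean of 35.8 and 33.3 of these UMIs in 5000 in pre-neutrophils, 47.7 and 43.4 in immature neutrophils, 15.4 and 16.1 in neutrophil progenitors and 17.3 and 18.5 in monocyte progenitors. In pre-neutrophils both the share of high cells and their content were lower in the library labelled Utx-deleted at cuts of 3, 5 and 10 UMIs. In neutrophil progenitors, where the counts are graded, the contents at cuts of 3 and 10 were 13.5 and 13.4, and 20.8 and 20.2, so number and content cannot be told apart there. High cells were also the deeper cells before thinning, with medians of 19047 and 20105 UMIs against 8943 and 9182 in the others. The removal of likely doublets weighed on them as well: it left out 10.3% and 12.5% of cells with at least 20 module UMIs, against 2.31% and 1.23% of those with 0 to 4. The part of doublets in the differences was not tested beyond the settings without their removal given at the end.

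Because the pre-neutrophil stage rests on Fcnb, a granule gene that itself falls as neutrophils mature, the same cells were followed along Fcnb without a boundary. Among Ltf-positive, Retnlg-low cells, the summed level of the 40 genes at less than 1 Fcnb UMI per 10000 was 35.5 in the control library and 37.5 in the other. It was 50.4 and 52.4 at 1 to 2. From 2 to 5 the order turned, with 63.5 against 53.7, and the gap widened through 62.5 against 52.1 at 5 to 10 and 58.5 against 45.4 at 10 to 20 to 54.4 against 39 at 20 or more. The log2 ratio thus moved from 0.08 and 0.06 in the cells with the least Fcnb to -0.24, -0.26, -0.36 and -0.48 in those with more. The last bin held 110 and 38 cells. The 42 replication and G1/S genes did not show this order. Their levels were 7.35 and 8.10, 8.90 and 12.3, 13.1 and 15.9, and 19.7 and 20.5 in the first 4 bins, 31.0 and 28.8 at 10 to 20 and 38.4 and 38.7 in the last, so they were lower in the library labelled Utx-deleted in 1 of the 6 bins.

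**Figure D3:**
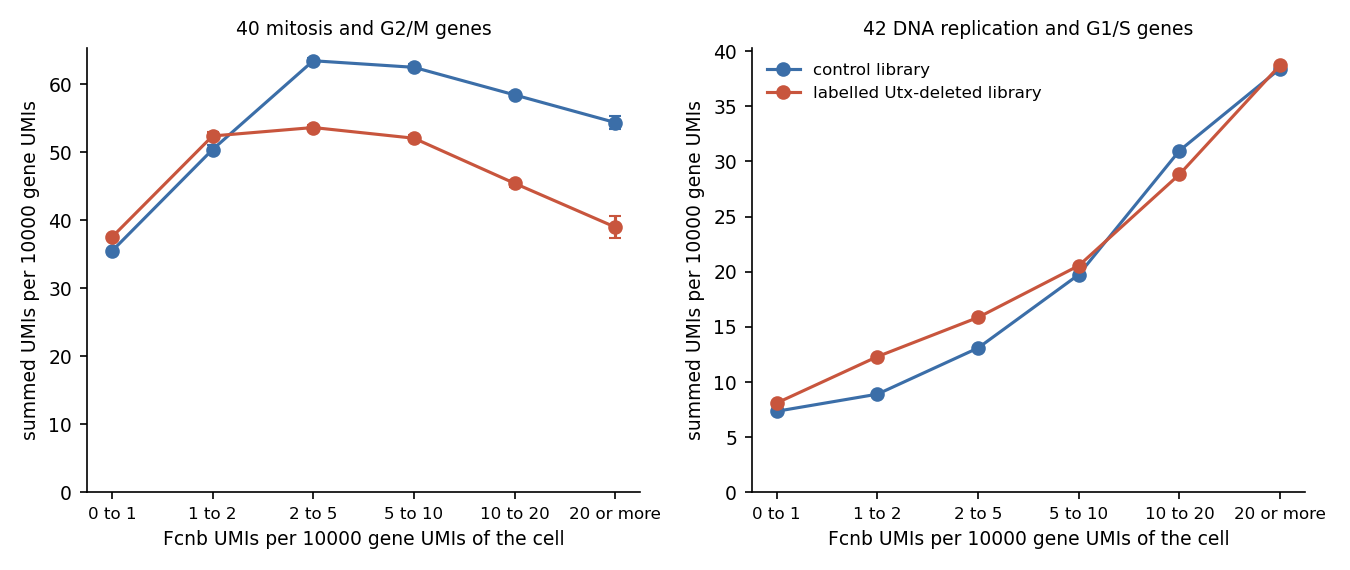
Summed UMIs per 10000 gene UMIs of the 40 mitosis and G2/M genes (left, with 95% Poisson intervals) and of 42 DNA replication and G1/S genes (right) in Ltf-positive, Retnlg-low cells binned by Fcnb UMIs per 10000. The left curves cross between the second and the next bin and are 54.4 and 39 at the right end, while the right curves stay close together there.

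The surface tags of these cells differed between libraries too. In high pre-neutrophils the Gr1 tag (a granulocyte maturation antigen) took a median of 171.5 of every 1000 surface-tag UMIs in the control library against 351, and in pre-neutrophils with none of the 40 transcripts 372 and 524. Within each library the high cells thus carried less Gr1, and they carried more CD117 (20.2 against 10.6 in the control library, 16 against 7.34 in the other). The same held in immature neutrophils, where Gr1 was 382 in high and 577 in empty control cells, and 546 and 713 in the other library. Marker transcripts of the pre-neutrophil stage differed as well, with Elane at 12.5 and 4.61 and Fcnb at 12.4 and 9.82 UMIs per 10000 (control first). The part of the Gr1 and marker differences in the lower module level was not tested.

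Single genes followed the sum, by small amounts. Over all cells the log2 ratio of the library labelled Utx-deleted to control was below 0 for 40 of 40 genes, with a median of -0.21, and the interval excluded 0 for 39. None was past 1.5-fold in either direction, and beside them, of all 13558 genes with at least 100 UMIs, 3.17% lay past that fold upward and 10.6% downward. The background leaned the same way, however: the median of all genes tested was -0.11, and 70.5% of them were below 0. TMM scaling, which removes such a lean, raised all ratios by 0.12 over all cells, left 34 of the 40 below 0 and turned Cdc20, Cenpa, Cdc25b, Spc25, Tacc3 and Prc1 above it. Within the pre-neutrophil stage that shift was 0.09, and 38 of 40 genes stayed below 0.

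**Figure D4:**
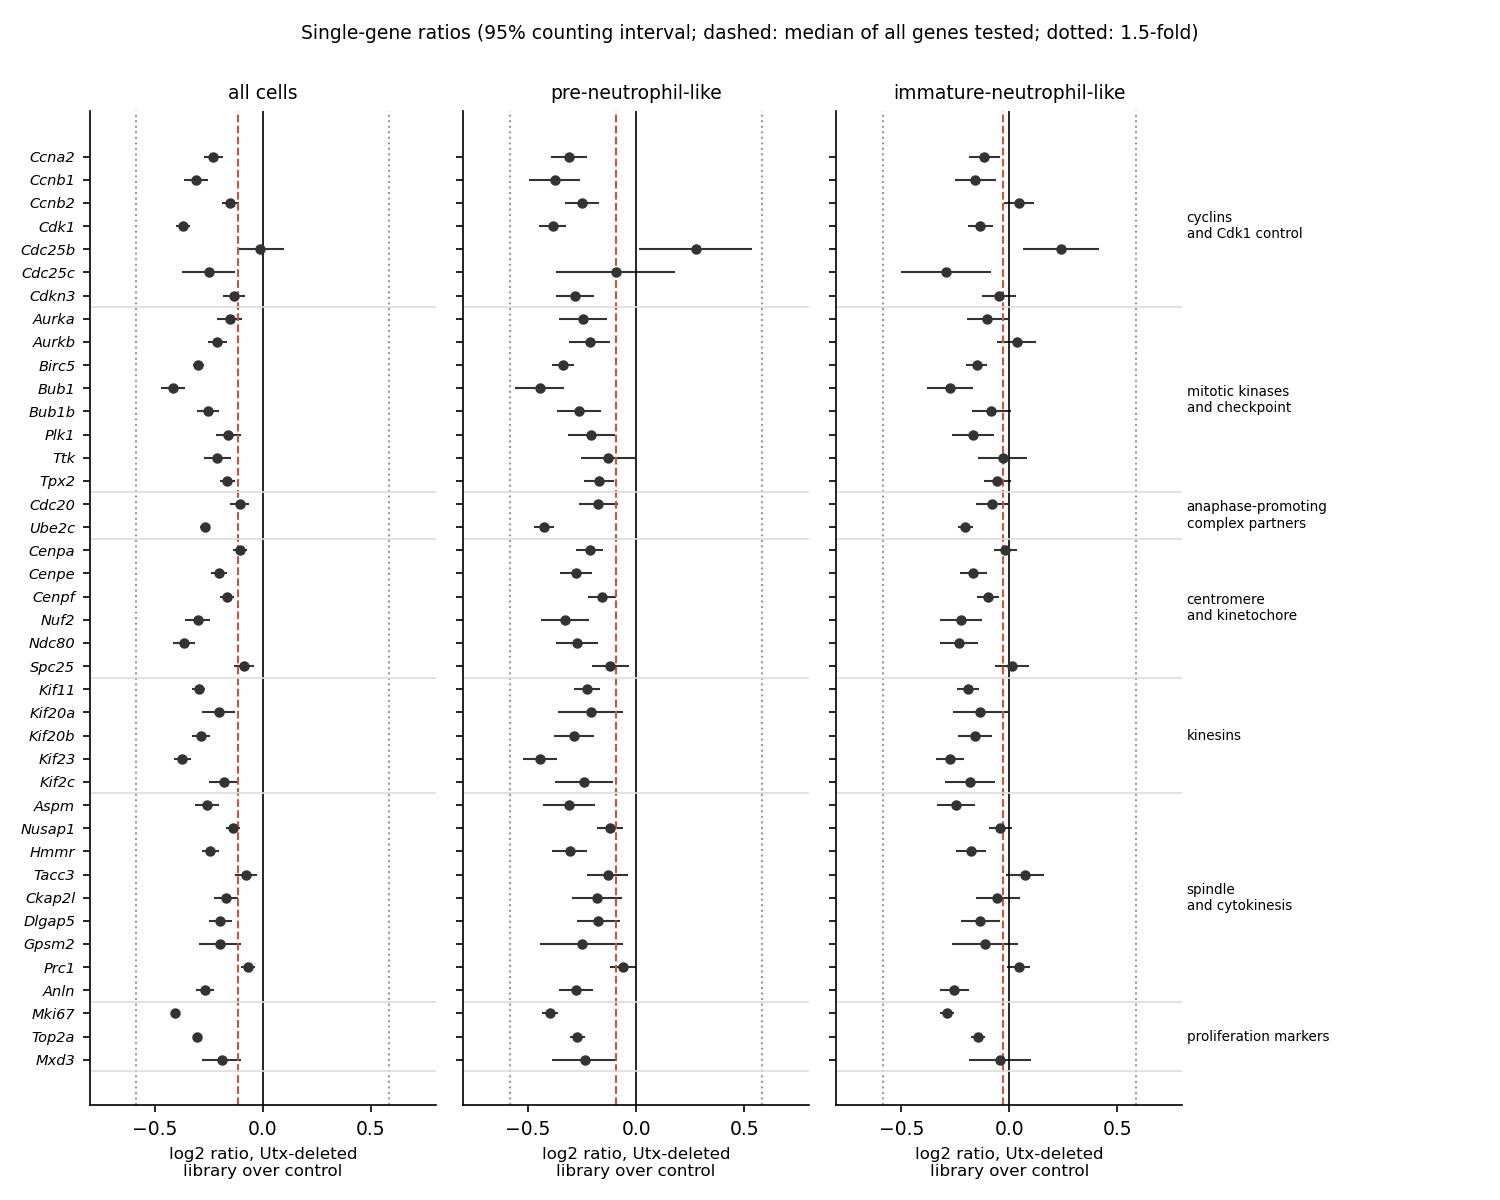
Log2 ratio of the library labelled Utx-deleted to control (horizontal axis) for each of the 40 genes (vertical axis, grouped by role) over all cells, in pre-neutrophils and in immature neutrophils; bars are 95% counting intervals, the dashed line is the median of all genes tested and dotted lines mark 1.5-fold. No gene reaches 1.5-fold in these 3 panels, and Cdc25b stands to the right of 0 in both neutrophil stages.

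Among the cyclins and the controllers of Cdk1, the kinase itself differed most. Cdk1 (chr10:69335146-69352938, GENCODE M21 on GRCm38) was at 1.65 and 1.64 UMIs per 10000 in the control hashtags and 1.26 and 1.24 in those of the other library, a log2 ratio of -0.37 (-0.40 to -0.34) over all cells. It was the lowest ratio of the 40 in neutrophil progenitors (-0.45) and in monocyte progenitors (-0.44), and was -0.39 in pre-neutrophils. Ccnb1, cyclin B1, was at 0.561 and 0.453 over all cells (-0.31), and Ccna2, cyclin A2, which acts from S phase into early mitosis, at 0.882 and 0.753 (-0.23). Cdc25b, a phosphatase that activates Cdk1, was the exception: 0.128 and 0.127 over all cells (-0.01, -0.12 to 0.10), and 0.0994 and 0.120 in pre-neutrophils (0.28, 0.01 to 0.54), where all of the other 39 genes were below 0. It rested on 278 and 218 UMIs there, and its hashtags (0.110 and 0.0937 against 0.116 and 0.131) stood in the same order.

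Of the mitotic kinases and checkpoint proteins, Bub1, a kinase of the spindle checkpoint, had the lowest ratio over all cells (-0.41, -0.47 to -0.36). Its hashtags read 0.568 and 0.529 (control) against 0.415 and 0.409. Birc5, the survivin subunit of the chromosomal passenger complex, was at 2.25 and 1.83 (-0.30), and its partner kinase Aurkb at 0.743 and 0.643 (-0.21). Plk1, the polo-like kinase, was at 0.457 and 0.409 (-0.16), but in stem-cell-like cells it was higher, at 0.352 and 0.545 (0.64), on 216 and 87 UMIs and with control hashtags at 0.401 and 0.281 against 0.559 and 0.540, and it was no longer past 1.5-fold after thinning. The high stem-cell-like cells also differed in their tags, with CD48 at 629 against 108, CD117 at 158 against 331 and CD41 at 11 against 47.1 per 1000 surface-tag UMIs. These shares rest on unlike tag totals, with medians of 1398.5 and 687.5 UMIs per cell. In median UMIs per cell CD117 hardly differed, at 232.5 and 233, while CD48 was at 882 and 58 and CD41 at 15.5 and 37. The part of the tag differences in the Plk1 difference was not tested.

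The anaphase partners parted from each other. Ube2c, the ubiquitin-conjugating enzyme that starts the chains, was at 4.26 and 4.42 in the pre-neutrophils of the control hashtags and 3.35 and 3.14 in the other library, a log2 ratio of -0.43 (-0.47 to -0.38). Cdc20, the activator of the complex, was at 0.990 and 0.877 in the same cells of each library (-0.17). Of the centromere and kinetochore genes, Ndc80 (-0.36) and Nuf2 (-0.30), which form one microtubule-binding complex with Spc25 (-0.09), differed over all cells by unlike amounts. Cenpa, the histone H3 variant of the centromere, was at 1.58 and 1.47 (-0.11).

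Kinesins had a median ratio of -0.28 over all cells. Kif23 (chr9:61915905-61946774), a motor of the central spindle needed for cytokinesis, was at 1.04 and 1.02 in the control hashtags and 0.806 and 0.750 in the other library (-0.37). Kif11, which pushes the spindle poles apart, was at 1.74 and 1.41 (-0.30) and Kif2c, which takes microtubules apart, at 0.325 and 0.287 (-0.18). Among the 9 spindle and cytokinesis genes, Prc1, which bundles the microtubules of the central spindle with Kif23, hardly differed, at 1.48 and 1.41 (-0.07), although its hashtags stood apart by a little (1.5 and 1.44 against 1.38 and 1.34). Anln, anillin of the contractile ring, was at 0.952 and 0.791 (-0.27).

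The general markers accounted for 22.8% and 21.3% of the module's UMIs in cells with at least 20 of them, more than any other role over all stages. In neutrophil progenitors the mitotic kinases and checkpoint genes took more, 21.0% and 20.6% against 19.99% and 19.6%. Mki67 (chr7:135689784-135716361), the Ki-67 protein that coats mitotic chromosomes, was at 4.46 and 4.23 in the control hashtags and 3.22 and 3.15 in the other library (-0.41, -0.43 to -0.39). In pre-neutrophils it was at 6.60 and 5.0 (-0.40) and in stem-cell-like cells at 4.92 and 3.90 (-0.33), where the median of the module was 0.12. Top2a, the topoisomerase that untangles sister chromosomes, was at 5.12 and 4.15 over all cells (-0.31). Mxd3, a MAX-binding transcription factor, was at 0.187 and 0.163 (-0.19). Without Mki67, Top2a and Cenpf the summed ratio over all cells was -0.22.

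By stage, few of the 40 genes passed 1.5-fold; the share of all genes that did so in each direction is given beside each count. In stem-cell-like cells 1 of 39 tested genes was higher (Plk1) and none lower, beside 3.70% and 7.67% of all genes. In early myeloid progenitors none was higher and 4 of 36 were lower, beside 3.58% and 3.92%. These were Aspm, a spindle pole protein (0.669 and 0.357), Ccnb2, cyclin B2 (1.06 and 0.617), the Cdk1 phosphatase Cdkn3 (0.280 and 0.164) and Ube2c (2.39 and 1.49), and for each of the 4 both hashtags of the library labelled Utx-deleted lay below both control hashtags. Their counts there were 48, 83, 22 and 201 UMIs from 56 cells. Hashtag 1 of that library held under 20 cells both here and among the stem-cell-like cells. In megakaryocyte or erythroid cells 1 of 39 was higher and none lower, beside 4.40% and 6.68%; it was Ckap2l, a protein of the mitotic spindle. In basophils or mast cells 2 of 32 were higher and none lower, beside 3.54% and 4.92%: Cenpa at 1.24 and 2.20 (0.83) and Aspm at 0.389 and 0.625 (0.68). Aspm overlapped between the hashtags of the libraries (0.271 and 0.528 against 0.799 and 0.493).

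None of the 40 genes tested in monocyte progenitors passed 1.5-fold, beside 2.81% of all genes higher and 3.98% lower, and none of 38 in neutrophil progenitors, beside 2.81% and 3.90%. In the latter, the G2/M genes did not all lean one way: 25 were below 0 and 13 above, with Cdk1 at 1.43 and 1.05 but Aspm at 0.169 and 0.223 (0.40) and Nusap1, a microtubule-binding protein, at 0.552 and 0.673 (0.29). Of all genes tested in that stage, 55.8% were below 0. In pre-neutrophils none of 40 passed, beside 2.38% and 5.92% of all genes, although 39 were below 0 with a median of -0.25 against -0.09 for all genes tested there. The 10 reference genes not tied to the cell cycle had a median of -0.21 in the same cells, with 9 of 10 below 0, and -0.21 in neutrophil progenitors, where the module's was -0.09. In immature neutrophils none of 40 passed, beside 5.02% and 6.29%, and 34 were below 0 with a median of -0.13 against -0.03. Of all genes tested, 67.1% were below 0 in pre-neutrophils and 54.9% in immature neutrophils. In late neutrophils 10 genes had enough UMIs, and 2 were higher and 2 lower, beside 4.59% and 9.39%.

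Ckap2l differed from the summed level in the stage where it was highest. In megakaryocyte or erythroid cells it was at 1.20 UMIs per 10000 in the control library and 2.08 in the other, a log2 ratio of 0.79 (0.61 to 0.97), with hashtags at 1.40 and 1.0 against 2.08 and 2.09. In pre-neutrophils it was at 0.608 and 0.537 and in stem-cell-like cells at 0.613 and 0.746. The megakaryocyte or erythroid stage was thus its highest in both libraries. The cells of that stage differed in kind between the libraries: among high cells the CD41 tag, a megakaryocyte marker, had a median of 14.1 per 1000 surface-tag UMIs against 353, and CD48 a median of 539.9 against 255. The part of this shift in the Ckap2l difference was not tested. Its level over all cells, 0.502 and 0.446, stood in the opposite order to that stage.

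The stage with the highest level was not the same for every gene. In the control library 26 of the 40 peaked in pre-neutrophils, 7 in stem-cell-like cells, 5 in megakaryocyte or erythroid cells, 1 in monocyte progenitors (Aurkb) and 1 in immature neutrophils (Cdc20). In the library labelled Utx-deleted 16 peaked in pre-neutrophils, 14 in stem-cell-like cells, 5 in megakaryocyte or erythroid cells, 4 in immature neutrophils (Ccna2, Ccnb2, Kif23 and Ube2c) and 1 in basophils or mast cells (Cenpa). These counts rest on point values, and some peaks were near ties. Among the 56 stem-cell-like cells of that library Tpx2 was at 1.66, against 1.63 in megakaryocyte or erythroid cells. Aurkb was at 0.815 there, against 0.775 in pre-neutrophils. Genes that peaked in stem-cell-like cells in both libraries included Kif20b, a kinesin of cytokinesis, at 1.51 and 1.53 there against 0.969 and 0.794 in pre-neutrophils, and Aspm, at 0.727 and 0.658, which was nearly tied with its 0.714 and 0.602 in immature neutrophils. At the other end, Mxd3 was at 0.365 and 0.310 in pre-neutrophils but 0.0831 and 0.0752 in stem-cell-like cells, and Cdkn3 at 1.05 and 0.867 against 0.271 and 0.188.

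**Figure D5:**
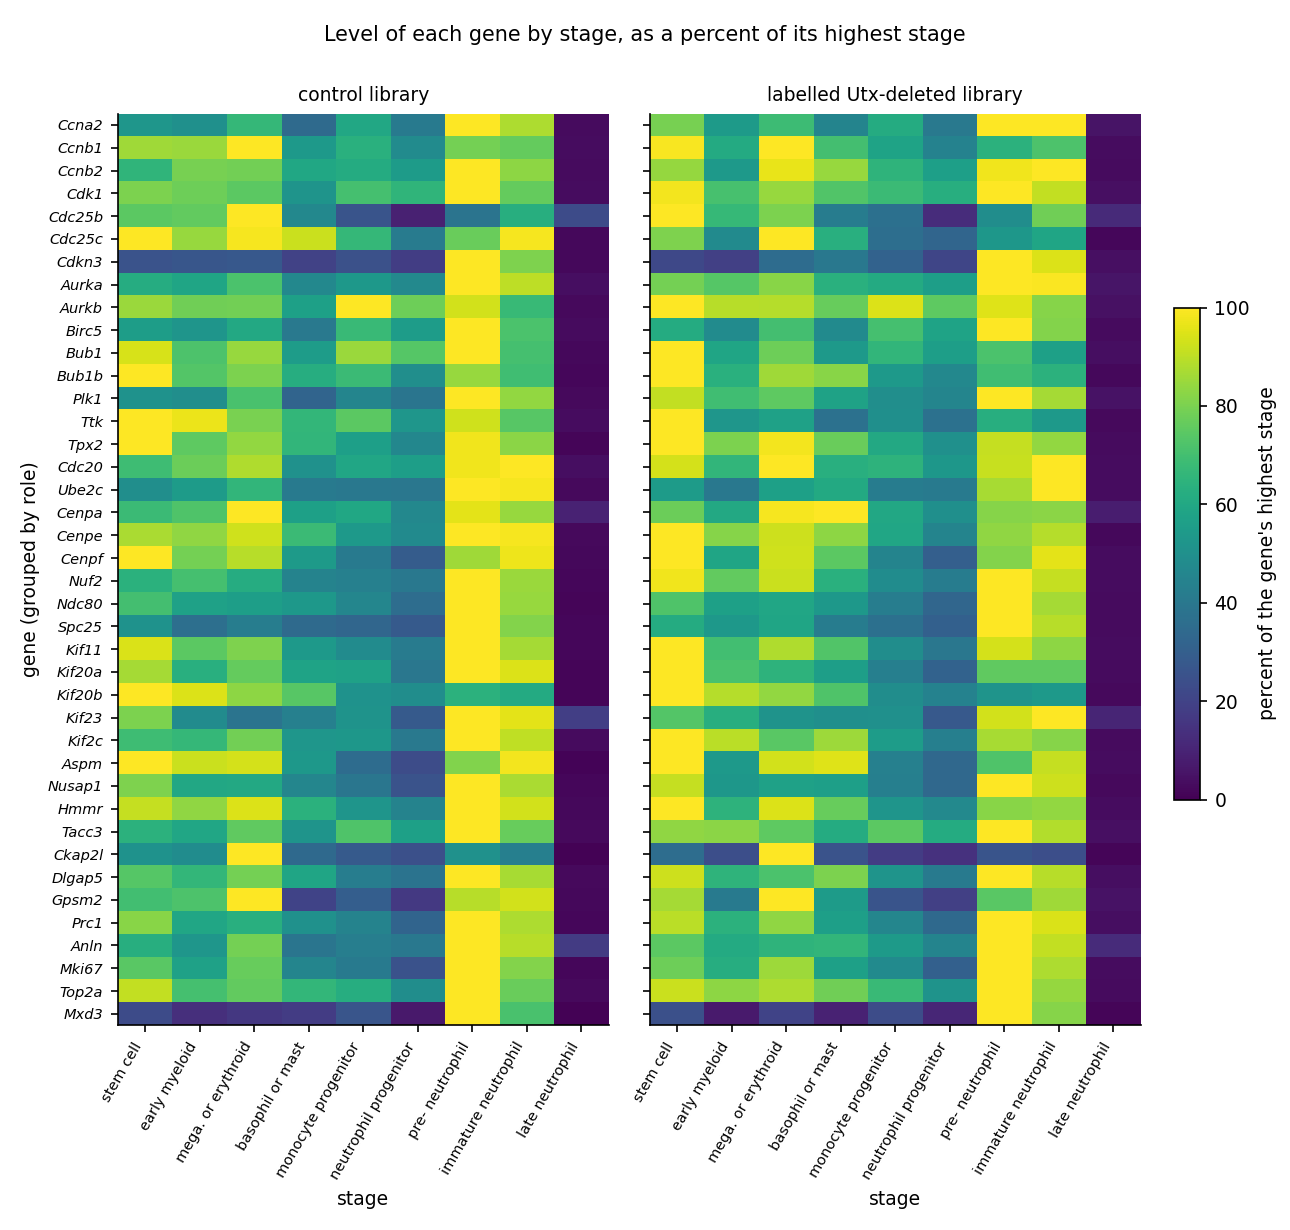
Level of each of the 40 genes (rows, grouped by role) in 9 stages (columns) as a percent of that gene's highest stage, for the control library (left) and the library labelled Utx-deleted (right). Of the 40 rows, 26 are brightest in pre-neutrophils in the control panel and 16 in the other, where 14 are brightest in stem-cell-like cells. Rows are dark in late neutrophils, Mxd3 and Cdkn3 are bright only in the pre- and immature neutrophil columns, Ckap2l is brightest in the megakaryocyte or erythroid column, and Cdc25b, Cenpa, Kif23 and Anln keep some signal in late neutrophils.

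Late neutrophils kept traces of a few of these genes. For 36 of the 40 the level there was 0.759 to 6.38% of that in pre-neutrophils, but for Cenpa it was 10.1% and 9.63%, for Anln 17.2% and 12.1%, for Kif23 18.6% and 11.2% and for Cdc25b 59.96% and 24.3%, with control first. In late neutrophils with at most 2 UMIs of the other 39 genes, Kif23 was at 0.272 (0.234 to 0.316) and 0.10 (0.0805 to 0.123), Anln at 0.230 and 0.113 and Cenpa at 0.210 and 0.142 UMIs per 10000. Anln was also present in immature neutrophils that were otherwise silent for the module, at 0.334 and 0.215, which was 15.4% and 12% of its level in cells with at least 20 UMIs of the other genes. Mki67 in such silent immature cells stood at 1.41% and 1.31% of its level in those with at least 20 UMIs of the other genes. Cdc25b did the reverse: it was at 0.00210 and 0.00744 in silent immature neutrophils (2 and 11 UMIs) and at 0.0587 and 0.0270 in silent late neutrophils (37 and 24 UMIs).

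Between the libraries, Kif23 in late neutrophils was 2.26-fold below control (log2 -1.18, -1.52 to -0.85), with hashtags at 0.245 and 0.295 against 0.0987 and 0.105, and Anln was 1.72-fold lower (-0.78, -1.12 to -0.45), at 0.194 and 0.250 against 0.134 and 0.113. The 2 genes counted as higher, Prc1 and Kif11, rested on 30 and 32 control UMIs. Their hashtag values did not keep that direction throughout, with Prc1 at -0.09 in hashtag 1 and 0.34 in hashtag 2 on the log2 scale. Late neutrophils with none of the 40 transcripts in 5000 UMIs were 42.6% of the late neutrophils deep enough to thin in the control library and 58.9% of those in the other. Free RNA in the droplets adds to such low counts, and its part was not tested.

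Within cells that carried many module UMIs the 40 genes were set in order by how far their transcripts lay from DNA replication. In pre-neutrophils with at least 20 module UMIs (1131 and 597 cells), the level of 42 replication and G1/S genes was averaged over cells with the weight of each module gene's UMIs. The unweighted mean over the same cells was 33.8 UMIs per 10000 in the control library and 32.1 in the other, and no gene exceeded it. Genes at the upper end were therefore spread over cells about like the average cell, and genes at the lower end sat in cells with fewer replication transcripts. In the control library Ttk, a checkpoint kinase (32.7), Anln (32.3), Ndc80 (32.3), Aurkb (32.2) and Top2a (31.97) came nearest to the mean. Cdc25b (13.7), Cdc20 (17.98), Ube2c (18.3), Aspm (18.4) and the kinetochore protein Cenpf (18.7) were lowest. In the library labelled Utx-deleted the lowest 5 were Cdc25b (15.3), Cdc20 (17.6), Ube2c (18.3), Cenpf (19.01) and Ccnb1 (19.2), and Ndc80 (31.8) and Ttk (31.6) came nearest to the mean. With neutrophil and monocyte progenitors added, whose replication levels differ, Aurkb (36.6) led and Cdc25b (17.6) was lowest in the control library, below an unweighted mean of 36.9. In the other library Ttk (35.8) and Aurkb (35.7) lay above the mean of 35.5 and Ube2c (20.4) was lowest.

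The replication genes give the context in which the module was lower. Over all cells the 42 genes summed to 27.7 UMIs per 10000 against 22.0 (log2 -0.33). Of these, 42 of 42 were below 0 with a median of -0.30, beside 70.5% of all 13558 genes tested, whose median was -0.11. Tyms, which makes thymidylate (-0.57), Pcna, the sliding clamp of DNA polymerase (-0.55), and the chromatin assembly subunit Chaf1b (-0.53) were lowest. By stage they were lower, as the module was, in neutrophil progenitors (38.7 and 31.7), monocyte progenitors (44.6 and 38.2) and pre-neutrophils (27.7 and 24.2). Along Fcnb, however, they were at 19.7 and 20.5, 31.0 and 28.8, and 38.4 and 38.7 in the bins from 5 Fcnb UMIs up, where the module's ratio was -0.26 to -0.48. The lists parted in immature neutrophils, where replication genes were higher in the library labelled Utx-deleted (10.2 and 11.7, log2 0.20, hashtags 10.7 and 9.68 against 11.1 and 11) and the module lower, and in basophils or mast cells, where 31 of 31 tested replication genes were below 0 (median -0.39) and 25 of 32 tested module genes above 0 (median 0.19). Of all 5648 genes tested in basophils or mast cells, 56.3% were below 0 (median -0.04). There 4 of 31 replication genes were at least 1.5-fold lower and none higher, beside 4.92% and 3.54% of all genes. Among the replication genes in immature neutrophils, 5 of 42 were at least 1.5-fold higher and none lower, beside 5.02% and 6.29% of all genes. In the neutrophil progenitors, cells with at least 5 UMIs in 5000 of both lists made up 68.4% and 50.6%, and cells with replication genes alone 29.5% and 43.2%. In immature neutrophils, cells with mitotic genes alone made up 13.8% and 11.9%, and cells with neither 61.9% and 61.3%.

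Related lists outside the 40 genes leaned the same way, by similar amounts. Over all cells, where 70.5% of all 13558 genes tested were below 0, 10.6% were at least 1.5-fold lower and 3.17% at least 1.5-fold higher, the median was -0.23 for 37 other G2/M genes (35 below 0, none past 1.5-fold), from Ect2, an activator of the cytokinetic GTPase (-0.40), to Psrc1 (0.09). It was -0.23 for 19 spindle checkpoint and kinetochore genes (18 below 0), with Cenpw, a histone-fold protein of the centromere, as the exception at 0.20, -0.17 for 17 genes of the anaphase-promoting complex (16 below 0), with its small subunit Anapc13 as the exception at 0.50, and -0.23 for 12 genes of condensin and cohesin (12 below 0). Among 20 regulators of mitotic genes the median was -0.20, with the activators E2f2 (-0.46) and Mybl2 (-0.42) lowest. None of these genes passed 1.5-fold. The median of 10 genes not tied to the cell cycle, taken as a reference, was -0.15, from B2m (-0.44) to Ywhaz (0.09), so these genes leaned the same way over all cells.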

How the data were processed

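The authors deposited raw UMI counts of 32285 genes and 15 antibody tags in each droplet, made with Cell Ranger 7.1.0 on mm10, per the submitters' processing notes. The annotation and the cell calling are not given in the sources used here. All further steps used Python 3.11.15, scipy 1.17.1 and scanpy 1.11.5. Cells with at least 500 genes and at most 10% mitochondrial UMIs passed, which left out 349 and 214 barcodes. Scrublet's own cut took out 0.0134% and 0% of cells, too few for the method to have worked, so the top 6% of scores were left out (467 and 463 cells), a treatment that stays incomplete. A cell carried a hashtag at 100 UMIs and 5 times the other. Stages were set by marker UMIs per 10000 gene UMIs (Retnlg 20, Ltf 20, Elane 20, Fcnb 5, others 2 to 10), with cutoffs read from the marker distributions. Kept cells summed to 108160461 and 114370198 gene UMIs.

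Levels are summed UMIs per 10000 gene UMIs with exact Poisson intervals. Ratios add 1 UMI to each sum and carry exact conditional binomial intervals, and a gene counted as past 1.5-fold at 100 or more UMIs over both libraries. Shares of cells have exact binomial (Clopper-Pearson) intervals. The ratio code was tested on simulated counts. The 40 genes, the related lists and the alternatives were chosen with earlier results of these data known. The genes named are any of the 40 and, of each related list, those with the 3 highest or 3 lowest ratios. Promoters are RefSeq's on GRCm38.p6. TMM factors came from edgeR 4.0.16 in R 4.3.3 on the 2 summed libraries. Alternatives were a stricter filter, other doublet rules, other denominators, other marker cutoffs and markers, each hashtag alone, and other thresholds. The order of the genes within pre-neutrophils alone was added after seeing the data.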

Additional observations from a re-analysis of the deposited data

How the results depend on the processing

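No paired analysis was possible because each group holds 1 library. The log2 ratio of the summed module over all cells, -0.25, stayed below 0 under 10 alternatives: -0.23 without doublet removal, -0.26 with both-hashtag barcodes left out instead of Scrublet scores, -0.28 with both left out (chosen after seeing the data), -0.17 without the 50 most abundant genes in the total, -0.34 after thinning, -0.29 as a mean over cells, -0.22 without Mki67, Top2a and Cenpf, and -0.31 and -0.24 in hashtag 1 and hashtag 2 alone. In the same order of doublet, abundant-gene, thinning, cell-mean and 3-gene settings, the pre-neutrophil ratio of -0.27 was -0.26, -0.29, -0.30, -0.17, -0.33, -0.32 and -0.26. It was -0.25 and -0.36 with 2-fold lower and higher marker cutoffs, -0.33 with the second marker set, which left few cells in that stage, and -0.32 in hashtag 2 alone. With equal stage weights the ratio of -0.17 was -0.16 without doublet removal, -0.18 with both doublet rules, -0.095 without abundant genes, -0.19 after thinning, -0.14 and -0.20 with lower and higher cutoffs, -0.24 with the second marker set, and, chosen after seeing the data, -0.25 and -0.13 in hashtag 1 and hashtag 2 alone. The number of stages with a lower level, 7 of 9, ranged from 5 of 8 compared stages (2-fold lower marker cutoffs) to 8 of 9 (stricter filter). Fewer stages were compared with 2-fold higher cutoffs (7) and in each hashtag alone (5). Early myeloid progenitors turned to 0.42 with higher cutoffs, and megakaryocyte or erythroid cells to 0.19 after thinning and 0.16 as a mean over cells. Stem-cell-like cells, at -0.03, had the other sign under 4 of 10 alternatives, up to 0.16 with lower cutoffs, and late neutrophils, at 0.00, under 11 of 13, down to -0.47 after thinning; the cause was not tested. The number of genes past the fold, summed over stages, was 12, and became 1 at 2-fold, 27 from 20 UMIs and 16 after thinning, when neutrophil progenitors had 4, monocyte progenitors 2 and pre-neutrophils 1. The share of all genes past the fold was not computed at 2-fold, from 20 UMIs or after thinning. These counts therefore have no background to be read against. The difference in the share of high cells, -8.26 percentage points, ranged from -9.57 to -7.15 over the other cuts in thinned cells. Without thinning it was smaller, with shares of 53.0% and 47.8%. In hashtag 1 or hashtag 2 alone only 5 stages kept 50 cells in each library, so the rest have no such value. In late neutrophils, where the genes were low, 10 of the 40 had 100 UMIs.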
